A study of Caenorhabditis elegans with 22 samples.

Results

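The microRNA genes mir-229, mir-64, mir-65 and mir-66 of the nematode Caenorhabditis elegans lie next to each other on chromosome III. Their rows, cel-mir-229, cel-mir-64, cel-mir-65 and cel-mir-66, were taken by name from a table of read counts for 250 microRNA hairpins, and all 4 were among the 141 hairpins with enough counts to be tested. Small RNA was sequenced from whole hermaphrodites of the wild-type strain N2 treated with rotenone at 0.039441 µg/ml, which blocks complex I of the mitochondrial respiratory chain, or with 2-deoxyglucose, a sugar that cells take up like glucose but that stops glycolysis. The labels give no dose for 2-deoxyglucose. Each compound was sampled at days 1, 5 and 10 with 3 libraries and at day 20 with 2 libraries, which makes 8 groups and 22 libraries. The series' title speaks of DMSO where the sample labels say 2-deoxyglucose. The groups are named here by the sample labels, and no untreated group was analysed here.

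MicroRNAs are short RNAs that are cut from hairpin precursors and guide Argonaute proteins to messenger RNAs, which are then repressed. Pairing rests mainly on the seed near the 5′ end of the mature RNA, so microRNAs that share a seed are grouped into one family. Hairpins that lie close together on one strand are often cut from one long primary transcript, and the amount of each mature product then also depends on its own processing and stability. The 4 genes are classed in one C. elegans family together with mir-63, a gene elsewhere in the genome. The mature RNAs of mir-64 and mir-65 are nearly identical in sequence. How the authors' counting assigned reads that match both is not given in the sources used here, so the separate values of these 2 hairpins are uncertain. The change of their sum is given wherever either was called in the fit reported, and for the interaction at day 10.

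By the genome annotation, which need not be of the build the authors used, the hairpins are neighbours. In build WBcel235 with the Ensembl 115 annotation the 4 hairpins span 755 bases on the plus strand of chromosome III. The hairpin of mir-229 (WBGene00003322) lies at 2172452 to 2172566 and that of mir-64 (WBGene00003292) at 2172848 to 2172957. The hairpin of mir-65 (WBGene00003293) lies at 2173002 to 2173101 and that of mir-66 (WBGene00003294) at 2173108 to 2173206. Between neighbours there are 281 bases from mir-229 to mir-64, 44 bases from mir-64 to mir-65 and 6 bases from mir-65 to mir-66. All 4 hairpins are intronic. They lie in intron 11 of gcn-1, a protein-coding gene on the same strand whose homologues encode GCN1, a ribosome-associated activator of the kinase GCN2. This intron is 6429 bases long in the transcript with 28 exons that was examined, and its end lies 1371 bases beyond mir-66. The messenger RNA of gcn-1 was not measured here. The nearest other hairpin of the table on this chromosome, mir-76, is 968838 bases away. The family member mir-63 lies on chromosome X at 17598765 to 17598868, on the minus strand and outside protein-coding genes.

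**Figure D1:**
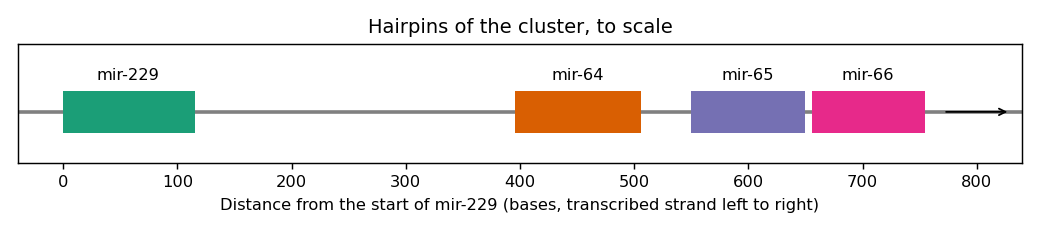
Map of the 4 hairpins, drawn to scale as boxes along their distance in bases from the first base of mir-229. The wide gap of 281 bases separates mir-229 from the other 3 hairpins, and mir-65 and mir-66 are 6 bases apart.

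Levels are given as CPM, a hairpin's counts set to one common library total, after scaling by the trimmed mean of M values (TMM), which sets libraries on a common scale from hairpins that differ little between them. Library totals ran between 664900 and 2233973 counts, so that 1 count was worth 0.440 to 1.65 CPM, and even the scarcest member, mir-229, rested on at least 1313 counts in each library. The first principal component of all tested hairpins held 61.0% of the variance. Of the 6 pairs of replicates at day 5, 5 differed more than any pair at another age. No label ties replicates to cultures of their own. The p-values thus reflect only how these libraries varied, which may be technical. The libraries were run on 7 lanes, rotenone and 2-deoxyglucose shared a lane at 0 of the 4 ages, and days 1 and 20 of one compound shared 0 lanes. Lane and compound at one age, and lane and age between days 1 and 20, therefore cannot be told apart within the groups compared. In whole worms, fewer cells of a type and less of an RNA per cell cannot be told apart either.

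The cluster was one of abundant hairpins led by mir-65 and mir-64, with mir-66 and mir-229 well below them. Together the 4 hairpins took between 2.26% and 4.55% of all counts in a library. Among the hairpins of one library mir-65 ranked between 11 and 24, mir-64 between 13 and 22, mir-66 between 26 and 35 and mir-229 between 33 and 42. The sum of mir-64 and mir-65 made up 71.9% to 83.0% of the cluster's counts. The counts of mir-64 and mir-65 differed by at most 14.9% in a library. At days 1, 5 and 10 mir-65 was above mir-64 in 3 of 3 libraries of each group, and at day 20 in 0 of 2 libraries of either compound. The hairpin of mir-229 was above mir-66 in 2 of 3 day 1 libraries of 2-deoxyglucose and in 0 libraries of every other group. These ranks compare reads and not molecules, since each microRNA is captured with its own efficiency during library preparation.

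In rotenone-treated worms mir-229, mir-64 and mir-65 were lower at day 20 than at day 1, while mir-66 was higher at days 5 and 10 and not called different from day 1 at day 20. The level of mir-65 was 16380, 16783 and 16930 CPM at day 1, 11816 to 17178 CPM at day 5, 15357 to 18366 CPM at day 10, and 8930 and 9338 CPM at day 20. Both day 20 libraries lay below all 9 earlier ones. The level of mir-64 was 14703, 14811 and 15820 CPM at day 1, 10281 to 14792 CPM at day 5, 13860 to 16379 CPM at day 10, and 9315 and 9609 CPM at day 20. Again the day 20 libraries were the lowest, and the groups of days 1, 5 and 10 overlapped for mir-64 as for mir-65. The level of mir-229 was 2728, 3128 and 3741 CPM at day 1, 2229 to 3582 CPM at day 5, 2227 to 3645 CPM at day 10, and 1460 and 1968 CPM at day 20. Its first 3 ages overlapped, and its day 20 libraries lay below them. The level of mir-66 was 3727, 3758 and 3973 CPM at day 1, 4407, 5178 and 5213 CPM at day 5, 4760, 4854 and 4975 CPM at day 10, and 4192 and 4320 CPM at day 20. All 8 later libraries of mir-66 lay above the 3 of day 1. The ranges of days 5, 10 and 20 stood apart from day 1, in either direction, for 53.9%, 68.1% and 78% of all tested hairpins. Those of days 20 and 10 did so for 61%.

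Tests of age used edgeR's quasi-likelihood test with Benjamini-Hochberg adjustment over the 141 hairpins, and a change was called at an adjusted p under 0.05. Between day 20 and day 1 in rotenone 3 of the 4 members fell and none rose, where 29.8% of all tested hairpins fell and 34% rose. The level of mir-229 fell by 0.90 ± 0.20 on the log2 scale (SE; adjusted p = 3.93e-04), which is 1.87-fold lower. That of mir-65 fell by 0.87 ± 0.17 (adjusted p = 7.34e-05) and that of mir-64 by 0.68 ± 0.16 (adjusted p = 6.72e-04). For mir-66 the difference was 0.16 ± 0.12 (adjusted p = 0.255), and its value turned to -0.02 when libraries were scaled by total counts. It was called higher (0.35, adjusted p = 0.00940) when TMM left out mir-35 to mir-42 and the 5 top hairpins. The CPM ranges of days 20 and 1 overlapped for none of the 4 members, and 78% of all tested hairpins likewise had no overlap. With mir-64 and mir-65 summed into one row the sum fell by 0.68 ± 0.17 (adjusted p = 0.00117). The median log2 change of the 4 members was -0.77, beside -0.03 over all tested hairpins. With lane as a factor in the fit mir-229 stayed called, while mir-64 was at -0.32 (adjusted p = 0.171) and mir-65 at -0.45 (adjusted p = 0.0549).

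In rotenone the steps between neighbouring ages were called lower between days 10 and 20. Between day 20 and day 10 the fall was 0.80 ± 0.20 for mir-229 (adjusted p = 0.00197), 0.66 ± 0.16 for mir-64 (adjusted p = 0.00158) and 0.86 ± 0.17 for mir-65 (adjusted p = 1.82e-04) on the log2 scale. That was 3 of 4 members lower, against 18.4% of all tested hairpins, and mir-66 was not called (adjusted p = 0.215). All 4 were called lower with TMM without the members, where 31 of all tested hairpins were lower. The same held with only the groups compared (29 hairpins lower) and without the day 5 libraries, chosen after seeing the data (35 hairpins lower). The sum of mir-64 and mir-65 in one row was at -0.80 ± 0.17 (edgeR adjusted p = 4.77e-04). Without rotenone day 20 replicate 2 the call of mir-229 was lost (adjusted p = 0.0789), and that of mir-64 was lost without day 20 replicate 1 (adjusted p = 0.0581) and without day 20 replicate 2 (adjusted p = 0.0563). Between day 5 and day 1 only mir-66 was called, higher by 0.37 ± 0.11 (adjusted p = 0.00627), a direction called in 24.8% of all tested hairpins. That call was lost without rotenone day 1 replicate 1 (adjusted p = 0.116). Without rotenone day 5 replicate 1, the library with the most mir-64 and mir-65 of its group, the number of members called was 3, with 1 higher and 2 lower. Without day 5 replicate 3 it was 2, with 1 higher and 1 lower. Scaling by total counts also called 2 members lower and none higher between day 5 and day 1, and TMM without the members and lane as a factor each called 1 higher (mir-66) and 1 lower. A fall of some members before day 10 in rotenone was therefore called under some of these settings. With total counts 54 of all tested hairpins were called lower, in place of 29 in the fit reported. The median log2 change of all hairpins was then -0.28, in place of 0.01. TMM without the members called 38 hairpins lower and lane as a factor 24. Whether the members fell more than the hairpins at large in these settings was not tested. Between day 10 and day 1 only mir-66 was called, higher by 0.35 ± 0.11 (adjusted p = 0.00850), with 29.1% of all tested hairpins called higher. With scaling by total counts neither rise of mir-66 was called (0.08, adjusted p = 0.604 at day 5, and 0.17, adjusted p = 0.216 at day 10). No member was called between day 10 and day 5, where 34.8% of hairpins were called in either direction. At an unadjusted p under 0.05 that count was also 0, the DESeq2 and limma-voom tests gave 0 as well, and without rotenone day 5 replicate 1 it was 2.

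In 2-deoxyglucose-treated worms the 3 upstream members were already lower at day 10 than at day 1, and mir-66 was higher. The level of mir-65 was 15929, 16363 and 18482 CPM at day 1, 12162, 18253 and 18314 CPM at day 5, 11266, 11561 and 12439 CPM at day 10, and 8469 and 8653 CPM at day 20. One day 5 library, replicate 1, lay among the day 10 values and the other two lay with day 1. The level of mir-64 was 13922, 13938 and 15786 CPM at day 1, 10870 to 16073 CPM at day 5, 10312, 10938 and 11005 CPM at day 10, and 8767 and 8809 CPM at day 20. It showed the same split at day 5. The level of mir-229 was 3381, 3657 and 4077 CPM at day 1, 3039, 3176 and 3263 CPM at day 5, 2104, 2251 and 2359 CPM at day 10, and 1376 and 1456 CPM at day 20. Each age of mir-229 lay wholly below the one before it. Over these 3 steps the ranges stood apart, in either direction, for 47.5%, 42.6% and 66% of all tested hairpins. The level of mir-66 was 3654, 3765 and 3828 CPM at day 1, 4991, 5170 and 5530 CPM at day 5, 5077, 6059 and 6593 CPM at day 10, and 3900 and 3913 CPM at day 20. The libraries of days 5 and 10 overlapped and lay above those of days 1 and 20. The ranges of days 10 and 1 stood apart for 68.1% of all tested hairpins.

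Between day 10 and day 1 in 2-deoxyglucose all 4 members were called, 3 lower and 1 higher, where 34.8% of all tested hairpins were called lower and 31.2% higher. The level of mir-229 fell by 0.73 ± 0.17 on the log2 scale (adjusted p = 0.00102), that of mir-65 by 0.53 ± 0.15 (adjusted p = 0.00322) and that of mir-64 by 0.44 ± 0.14 (adjusted p = 0.00878). That of mir-66 rose by 0.66 ± 0.11 (adjusted p = 1.22e-05), which is 1.58-fold higher, and it was called under every alternative run. The sum of mir-64 and mir-65 in one row was at -0.42 ± 0.15 (edgeR adjusted p = 0.0193). The call of mir-64 was lost without 2-deoxyglucose day 1 replicate 3 (adjusted p = 0.0513), day 10 replicate 1 (adjusted p = 0.0828) or day 10 replicate 2 (adjusted p = 0.0570). It was also lost with TMM that left out mir-35 to mir-42 and the 5 top hairpins (-0.36, adjusted p = 0.0541) and with TMM without the members (-0.32, adjusted p = 0.0591). Between day 20 and day 1 mir-229 fell by 1.39 ± 0.20 (adjusted p = 2.67e-06), which is 2.62-fold lower. Over the same span mir-65 fell by 0.98 ± 0.17 (adjusted p = 1.81e-05) and mir-64 by 0.73 ± 0.16 (adjusted p = 3.28e-04), and their sum in one row fell by 0.85 ± 0.17 (adjusted p = 1.21e-04). For mir-66 the difference was 0.06 ± 0.12 (adjusted p = 0.648), which turned to -0.04 with scaling by total counts and to 0.26 (adjusted p = 0.0416) with TMM that left out the same hairpins. So 3 of 4 members fell by day 20, against 34% of all tested hairpins, and the ranges of all 4 stood apart, against 78.7% of hairpins. The members had a median log2 change of -0.86, beside -0.09 over all hairpins tested.

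Several of the calls between neighbouring ages in 2-deoxyglucose were lost when 1 library was left out, while the changes kept their direction. Between day 5 and day 1 mir-66 rose by 0.48 ± 0.11 (adjusted p = 7.96e-04) and no other member was called, with 22.7% of all hairpins called higher. With scaling by total counts this rise was not called (0.23, adjusted p = 0.109). Between day 10 and day 5 the fall was 0.50 ± 0.17 for mir-229 (adjusted p = 0.0314), 0.40 ± 0.14 for mir-64 (adjusted p = 0.0310) and 0.47 ± 0.15 for mir-65 (adjusted p = 0.0152), so that 3 of 4 members were called lower against 15.6% of all hairpins. The sum of mir-64 and mir-65 in one row was at -0.47 ± 0.15 (edgeR adjusted p = 0.0176). Without day 5 replicate 2 or day 5 replicate 3 none of the 4 members was called, and likewise without day 10 replicate 1 or day 10 replicate 2. Without day 10 replicate 3 the count was 1. Between day 20 and day 10 mir-66 fell by 0.60 ± 0.12 (adjusted p = 3.85e-04), mir-229 by 0.66 ± 0.20 (adjusted p = 0.0105) and mir-65 by 0.46 ± 0.16 (adjusted p = 0.0278), and mir-64 was not called (adjusted p = 0.134). That was 3 of 4 lower against 24.8% of all hairpins. The sum of mir-64 and mir-65 in one row was at -0.43 ± 0.17 (edgeR adjusted p = 0.0428). Without day 20 replicate 2 mir-229 was at an adjusted p of 0.0945 and 1 member was called. The call of mir-65 was lost without day 10 replicate 1 (adjusted p = 0.128), day 10 replicate 2 (adjusted p = 0.210), day 20 replicate 1 (adjusted p = 0.0919) or day 20 replicate 2 (adjusted p = 0.205). It was lost too in 6 of 11 other settings, with changes between -0.43 and -0.33. The adjusted p was 0.0753 with DESeq2 size factors, 0.107 with total counts, 0.149 with TMM without the abundant hairpins, 0.183 without a filter, 0.0616 with the strict filter of 100 counts and 0.0700 in the DESeq2 test.

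**Figure D2:**
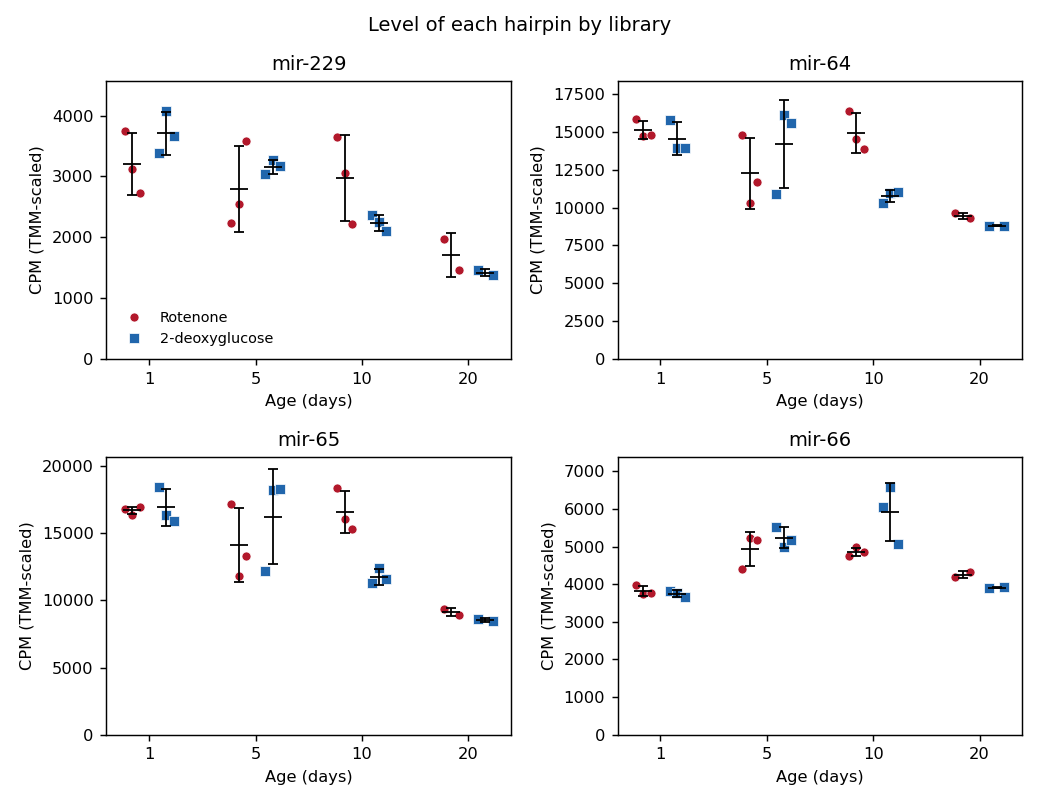
TMM-scaled CPM of mir-229, mir-64, mir-65 and mir-66 in each of the 22 libraries by age in days, for rotenone and 2-deoxyglucose; points are libraries and bars are mean ± SD. The day 20 libraries of mir-64 and mir-65 lie between 8469 and 9609 CPM, below those of the earlier ages, while mir-66 is highest at days 5 and 10.

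**Figure D3:**
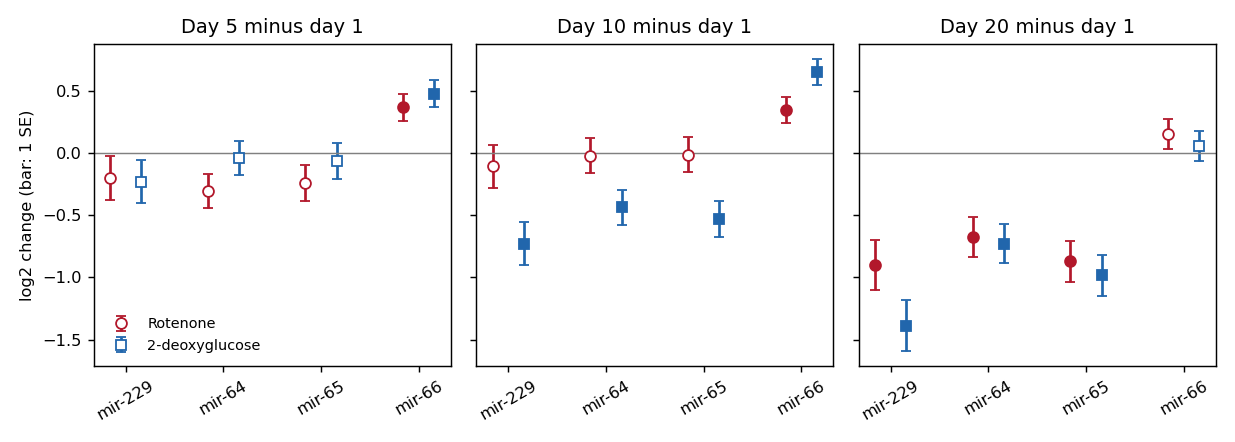
Log2 changes (± SE) of each member between later ages and day 1 in each compound; filled markers passed an adjusted p of 0.05 in edgeR's quasi-likelihood test and open ones did not. The changes of mir-229, mir-64 and mir-65 at day 20 lie between -1.39 and -0.68, and those of mir-66 at day 20 are 0.16 in rotenone and 0.06 in 2-deoxyglucose.

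The make-up of the cluster was then followed as the ratio of the counts of 2 members in the same library, which does not depend on how libraries are scaled. In rotenone the ratio of mir-66 to mir-65 was 0.222, 0.228 and 0.237 at day 1, 0.257, 0.388 and 0.441 at day 5, 0.259, 0.310 and 0.316 at day 10, and 0.449 and 0.484 at day 20. In 2-deoxyglucose it was 0.207, 0.229 and 0.230 at day 1, 0.273, 0.282 and 0.455 at day 5, 0.439, 0.530 and 0.538 at day 10, and 0.451 and 0.462 at day 20. Day 1 lay below every later age in both compounds. The ratio of mir-229 to mir-66 averaged 0.836, 0.562, 0.613 and 0.404 in rotenone and 0.989, 0.606, 0.382 and 0.362 in 2-deoxyglucose at days 1, 5, 10 and 20. The ratio of mir-64 to mir-65 averaged 0.905, 0.869, 0.900 and 1.04 in rotenone and 0.860, 0.875, 0.916 and 1.03 in 2-deoxyglucose at the same ages. It was above 1 in the 4 day 20 libraries and below 1 in the other 18.

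All 6 pairs of members were compared between late ages (days 10 and 20) and early ages (days 1 and 5) by an exact permutation test within compounds, two-sided, with adjustment over 12 ratio tests. Of the 6 pairs 4 differed. The log2 ratio of mir-229 to mir-66 was lower at the late ages by -0.73 (exact p = 6.70e-04, adjusted p = 0.00455), with -0.42 in rotenone and -1.05 in 2-deoxyglucose. That of mir-65 to mir-66 differed by -0.58 (adjusted p = 0.0153 in the exact permutation test) and that of mir-64 to mir-66 by -0.45 (adjusted p = 0.0349). That of mir-64 to mir-65 was higher by 0.12 (exact p = 7.59e-04, adjusted p = 0.00455), a value that depends on how reads were split between these near-identical RNAs. The ratios of mir-229 to mir-64 (-0.28, adjusted p = 0.0651) and of mir-229 to mir-65 (-0.15, adjusted p = 0.309) did not pass the exact test. With mir-64 and mir-65 summed, their ratio to mir-66 differed by -0.52 (adjusted p = 0.0183) and that of mir-229 to mir-66 by -0.73 (adjusted p = 0.00402). That of mir-229 to the sum was at -0.21 (adjusted p = 0.145), so 2 of 3 pairs passed. The call for mir-64 over mir-66 was lost without any one of the 6 day 1 libraries, without 2-deoxyglucose day 10 replicate 2, and without either rotenone day 20 library, with differences between -0.43 and -0.41. The ratio of mir-229 to mir-64 passed without rotenone day 5 replicate 1 (-0.33), rotenone day 10 replicate 1 (-0.31) or 2-deoxyglucose day 10 replicate 1 (-0.31).

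**Figure D4:**
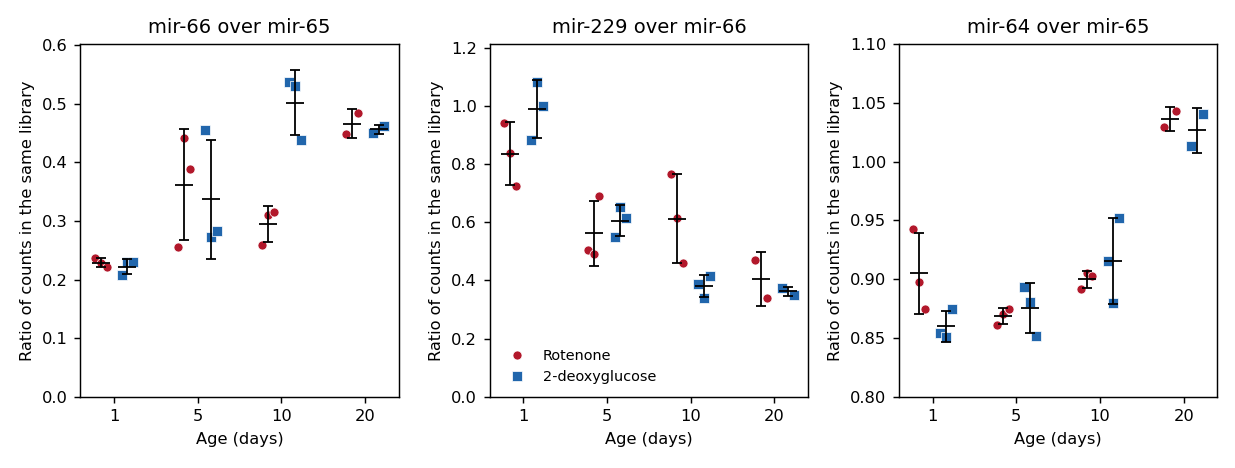
Ratio of counts in the same library for mir-66 over mir-65, mir-229 over mir-66 and mir-64 over mir-65 by age in days; points are libraries, bars are mean ± SD, and the axis of the last panel does not start at 0. At day 10 mir-66 over mir-65 is 0.259 to 0.316 in rotenone and 0.439 to 0.538 in 2-deoxyglucose, while at day 20 it is 0.449 to 0.484 in rotenone and 0.451 to 0.462 in 2-deoxyglucose.

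At day 10, the only age with a call between the compounds, mir-64 and mir-65 were higher in rotenone than in 2-deoxyglucose. For mir-65 the 3 rotenone libraries had 15357 to 18366 CPM and the 3 of 2-deoxyglucose 11266 to 12439 CPM. For mir-64 the range was 13860 to 16379 CPM in rotenone and 10312 to 11005 CPM in 2-deoxyglucose. For mir-66 it was 4760 to 4975 CPM in rotenone and 5077 to 6593 CPM in 2-deoxyglucose. The groups did not overlap for these 3 members, which was so for 31.2% of all tested hairpins. For mir-229, with 2227 to 3645 CPM in rotenone and 2104 to 2359 CPM in 2-deoxyglucose, the groups overlapped through 1 rotenone library.

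In edgeR's quasi-likelihood test the log2 difference at day 10, rotenone minus 2-deoxyglucose, was 0.50 ± 0.15 for mir-65 (adjusted p = 0.0467) and 0.47 ± 0.14 for mir-64 (adjusted p = 0.0467). It was 0.41 ± 0.17 for mir-229 (adjusted p = 0.156) and -0.28 ± 0.11 for mir-66 (adjusted p = 0.128). So 2 of 4 members were called, both higher in rotenone, where 4.26% of all tested hairpins were called higher. Both calls lie close to the threshold. The differences kept their direction with each of the 6 libraries left out in turn, at 0.45 to 0.53 for mir-64 and 0.46 to 0.56 for mir-65, and only the omission of rotenone day 10 replicate 3 kept the calls. Without rotenone day 10 replicate 1 the adjusted p of both was 0.370, and without replicate 2 it was 0.133. Without 2-deoxyglucose day 10 replicate 1 it was 0.224 for both. Without replicate 2 it was 0.232 for mir-64 and 0.198 for mir-65, and without replicate 3 it was 0.0925 for mir-64 and 0.0948 for mir-65. Summed into one row, mir-64 and mir-65 differed by 0.50 with an adjusted p of 0.0532. Of 11 other settings 6 kept both calls. These were total counts, the DESeq2 and limma-voom tests, lane as a factor, only the groups compared, and the fit without the day 5 libraries. The DESeq2 test also called mir-66 lower in rotenone (-0.33, adjusted p = 0.00143). So did edgeR without the day 5 libraries (-0.30, adjusted p = 0.0384). The other 5 settings lost the calls of mir-64 and mir-65. With DESeq2 size factors the differences were 0.42 for mir-64 (adjusted p = 0.0869) and 0.45 for mir-65 (adjusted p = 0.0823), and mir-66 was called lower (-0.33, adjusted p = 0.0349). The calls were likewise lost with both other TMM variants, without a filter and with the strict filter, at 0.32 to 0.52 for mir-64 and 0.35 to 0.54 for mir-65. In edgeR mir-66 was called lower with TMM without the members (-0.43, adjusted p = 0.00700) and with the strict filter (-0.36, adjusted p = 0.0467). For mir-229 the difference lay between 0.14 and 0.46 in 12 other settings, the summed row included, and was called in 0 of them. With single libraries left out it lay between 0.27 and 0.58 and was called in 1 of 6 omissions. At this age the intestinal microRNA mir-60 and the glial microRNA mir-228 were also higher in rotenone. The level of mir-60 was 1859 to 2445 CPM in rotenone and 1378 to 1854 CPM in 2-deoxyglucose, and that of mir-228 was 87614 to 105910 CPM in rotenone and 78561 to 82484 CPM in 2-deoxyglucose. Neither overlapped between the compounds, which was so for 31.2% of all tested hairpins. The other tissue markers overlapped at this age. The muscle microRNA mir-1 averaged 368 CPM in rotenone and 357 CPM in 2-deoxyglucose, and the 4 neuronal markers summed to means of 252 and 265 CPM. The egg and embryo hairpins mir-35 to mir-42 summed to means of 218052 CPM in rotenone and 263637 CPM in 2-deoxyglucose. The part of any marker in the difference of the cluster was not tested.

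Whether the change since day 1 differed between the compounds was tested as an interaction. At day 10 it was 0.62 ± 0.25 on the log2 scale for mir-229 (adjusted p = 0.0832), 0.52 ± 0.20 for mir-65 (adjusted p = 0.0832), 0.42 ± 0.20 for mir-64 (adjusted p = 0.149) and -0.31 ± 0.15 for mir-66 (adjusted p = 0.156). None of the 4 was called, where 14.2% of all tested hairpins were, although 3 of 4 were under an unadjusted p of 0.05 and DESeq2 called 1. For the sum of mir-64 and mir-65 in one row the interaction was 0.54 ± 0.21 (edgeR adjusted p = 0.0749). The interaction of mir-229 was called without rotenone day 1 replicate 1 (adjusted p = 0.0218), rotenone day 10 replicate 3 (adjusted p = 0.0200) or 2-deoxyglucose day 10 replicate 1 (adjusted p = 0.0423). Over the 12 omissions it lay between 0.52 and 0.79. In 12 other settings it lay between 0.06 and 0.70 and was called in 0 of them. With lane as a factor the interaction was called for mir-64 (1.09, adjusted p = 0.0199) and mir-65 (1.28, adjusted p = 0.00727). Without the 6 day 5 libraries, a setting chosen after seeing the data, it was called for mir-64 (0.46, adjusted p = 0.0104) and mir-65 (0.56, adjusted p = 0.00545). With only the groups compared it was called for mir-65 (0.40, adjusted p = 0.0165) and mir-66 (-0.41, adjusted p = 0.0352). For mir-66 alone it was called with TMM without the members (-0.43, adjusted p = 0.0279) and in the DESeq2 test (-0.36, adjusted p = 0.0202). The difference between the compounds in the change by day 10 thus missed the threshold in the fit reported and passed it for 1 or 2 members in these 5 settings.

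The ratio of mir-66 to mir-65 averaged 0.295 ± 0.0313 in rotenone and 0.502 ± 0.0548 in 2-deoxyglucose at day 10 (SD, n = 3 each), and no library of one group reached the other. At that age the log2 ratio of mir-65 to mir-66 was 0.77 higher in rotenone, that of mir-64 to mir-66 0.74 higher and that of mir-229 to mir-66 0.66 higher. Day 10 alone, with 3 libraries against 3, is too small for an exact permutation test to pass the threshold. Averaged over the 4 ages, none of the 6 ratios differed between rotenone and 2-deoxyglucose (adjusted p between 0.309 and 0.725 in the exact permutation test, with 0 of 6 in each omission of a library).

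At the other ages no difference between the compounds was called. At day 1 mir-65 averaged 16698 ± 285 CPM in rotenone and 16925 ± 1366 CPM in 2-deoxyglucose, and mir-66 averaged 3820 ± 134 CPM in rotenone and 3749 ± 87.8 CPM in 2-deoxyglucose (SD, n = 3 each). All 4 members overlapped, where 31.2% of hairpins did not, with edgeR adjusted p between 0.534 and 0.950, where 11.3% of all tested hairpins were called. At day 5 mir-65 averaged 14109 ± 2764 CPM in rotenone and 16243 ± 3535 CPM in 2-deoxyglucose, and the groups overlapped for all 4 members. The edgeR adjusted p at day 5 lay between 0.429 and 0.716, with 9.93% of hairpins called, and 2 members were called without 2-deoxyglucose day 5 replicate 1. At day 20 the whole cluster summed to 24566 ± 765 CPM in rotenone and 22672 ± 149 CPM in 2-deoxyglucose (SD, n = 2 each). The ranges of all 4 members stood apart, higher in rotenone, and 56.7% of tested hairpins likewise had no overlap between 2 libraries and 2. The edgeR adjusted p at day 20 lay between 0.507 and 0.848, with 0.709% of hairpins called. Averaged over the 4 ages the adjusted p lay between 0.436 and 0.684, with 10.6% of hairpins called, and DESeq2 called 1 member, mir-66, lower in rotenone. Without 2-deoxyglucose day 20 replicate 2 that count was 1 in edgeR too. The interaction was called for none of the 4 members at day 5 (6.38% of hairpins) or day 20 (3.55% of hairpins). In each of these comparisons the count at an unadjusted p under 0.05 was also 0 of 4.

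**Figure D5:**
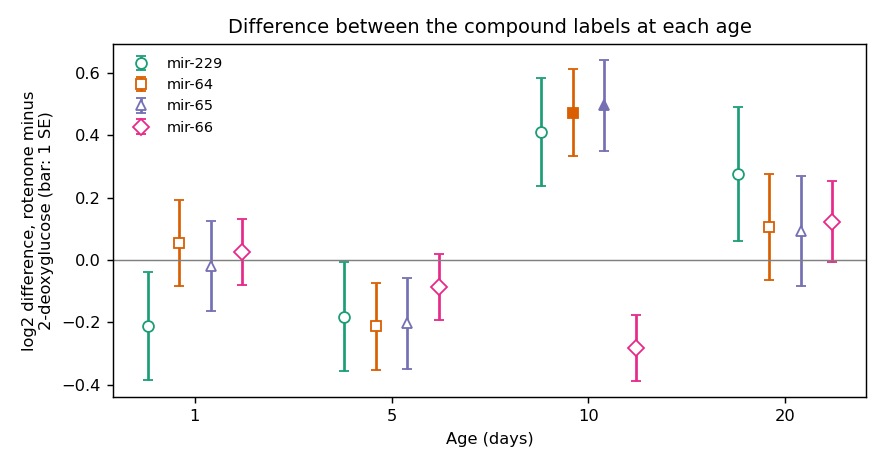
Log2 difference (± SE), rotenone minus 2-deoxyglucose, of each member at days 1, 5, 10 and 20; filled markers passed an adjusted p of 0.05 in edgeR's quasi-likelihood test. At day 10 mir-65 is at 0.50, mir-64 at 0.47 and mir-66 at -0.28, and only mir-64 and mir-65 at day 10 are filled.

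The fifth gene of the family, mir-63 on chromosome X, was scarcer than the 4 clustered genes. It was named for its family and not by a rule on its values, which were known by then. It averaged 455 ± 28.9, 697 ± 119, 561 ± 71.0 and 195 ± 0.504 CPM at days 1, 5, 10 and 20 in rotenone, and 562 ± 27.9, 740 ± 49.9, 511 ± 57.2 and 210 ± 8.56 CPM in 2-deoxyglucose (SD, n = 3, and n = 2 at day 20). Between day 5 and day 1 it rose by 0.61 ± 0.13 on the log2 scale in rotenone (edgeR adjusted p = 4.95e-04) and by 0.39 ± 0.13 in 2-deoxyglucose (adjusted p = 0.0155), the age at which mir-66 was also higher. Neither rise was called with scaling by total counts, and the one in 2-deoxyglucose was lost without day 1 replicate 2 (adjusted p = 0.134) or day 1 replicate 3 (adjusted p = 0.0926). Between day 20 and day 1 it fell by 1.22 ± 0.15 in rotenone (adjusted p = 2.53e-07) and by 1.42 ± 0.16 in 2-deoxyglucose (adjusted p = 2.78e-08), as mir-229, mir-64 and mir-65 did.

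The likeness of the courses was described by Pearson's r of log2 CPM over the 22 libraries, which share ages, compounds and scaling and are therefore not independent points. Among the members mir-64 and mir-65 were most alike (r = 0.98), and these near-identical RNAs may share reads. The hairpin of mir-229 followed mir-65 (r = 0.83) and mir-64 (r = 0.78). The hairpin of mir-66 followed none of them, with r = -0.02 to mir-229, -0.18 to mir-64 and -0.10 to mir-65, although it is the closest neighbour of mir-65. Outside the cluster mir-241, a let-7 family microRNA of the developmental timing pathway, was the most like mir-229 (r = 0.93), mir-65 (r = 0.88) and mir-64 (r = 0.82). Next to mir-229 came mir-70 (r = 0.87) and mir-1020 (r = 0.86), next to mir-65 came mir-55 (r = 0.83) and mir-1020 (r = 0.82), and next to mir-64 came mir-55 (r = 0.78) and the timing microRNA lin-4 (r = 0.76). Most like mir-66 were mir-48, another let-7 family member (r = 0.84), mir-58a (r = 0.80) and mir-248 (r = 0.77).

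Members of other genomic clusters also differed in their change with age in these libraries. The annotation holds 17 other clusters of tested hairpins on one strand with gaps up to 10000 bases. The spread of the day 20 to day 1 change inside the mir-229 cluster, highest minus lowest member, was 1.06 on the log2 scale in rotenone and 1.45 in 2-deoxyglucose. Counted from the widest, this was place 11 of 18 in rotenone and place 10 of 18 in 2-deoxyglucose. For day 10 against day 1 the spread was 0.45 in rotenone, place 13 of 18, and 1.38 in 2-deoxyglucose, place 6 of 18. The pair mir-48 and mir-241, whose courses resembled mir-66 and mir-229, had spreads of 2.38 in rotenone and 3.42 in 2-deoxyglucose.

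Markers of worm tissues also moved with age, and their part in the changes of the cluster was not tested. The muscle microRNA mir-1 had 139 to 194 CPM at day 20, against 599 to 703 CPM at day 1, in rotenone. In 2-deoxyglucose it had 154 to 199 CPM at day 20, against 448 to 656 CPM at day 1. The intestinal microRNA mir-60 had 777 to 880 CPM at day 20, against 1739 to 1907 CPM at day 1, in rotenone. In 2-deoxyglucose it had 603 to 639 CPM at day 20, against 2014 to 2230 CPM at day 1. At day 5 it varied widely between replicates, from 1813 to 4593 CPM in rotenone and from 988 to 3767 CPM in 2-deoxyglucose. The 8 hairpins mir-35 to mir-42, which mark eggs and embryos inside the worms, summed to 268785 to 316498 CPM at day 20, against 136826 to 187711 CPM at day 1, in rotenone. In 2-deoxyglucose they summed to 239190 to 258341 CPM at day 20, against 108669 to 138183 CPM at day 1. At day 10 their sum was 183595 to 250813 CPM in rotenone and 238172 to 303933 CPM in 2-deoxyglucose, and the groups overlapped. The 4 neuronal markers summed to group means between 213 and 295 CPM, and the glial marker mir-228 to means between 76620 and 127526 CPM. None of these markers was at 0 in any group.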

How the data were processed

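Small RNA libraries of whole worms were made with the TruSeq small RNA kit, per the labels' protocols. The submitters' processing notes name BWA 0.7.12-r1039, SAMtools 1.3.1-9, CASAVA 1.8.4 and Trimmomatic 0.36, without role or order. The authors deposited 1 table of raw counts per hairpin. The genome build they used and their rule for reads that match several hairpins were not stated in any source at hand. Coordinates come from Ensembl 115 (WBcel235), where 247 of the 250 hairpins were found by name. No sequences are printed.

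Groups followed the labels of compound and age, and replicates were numbered by accession. Counts were fitted over all 22 libraries with 8 group means in edgeR 4.0.16 (R 4.3.3; TMM scaling, filterByExpr with a minimum count of 10, robust quasi-likelihood test), with Benjamini-Hochberg adjustment over 141 hairpins and a threshold of 0.05. Of the 250 hairpins 18 had no count. The median biological coefficient of variation was 13.3%. Replicates differed beyond counting noise in every group (chi-square per degree of freedom between 12.1 and 327.5), so none was counted as a repeat. Log2 ratios of member counts, with 0.5 added, were tested by exact permutation of libraries. The steps were tested on simulated data. Alternatives were DESeq2 1.42.0, limma-voom (limma 3.58.1), other scalings and filters, lane as a factor, fewer samples, summed mir-64 and mir-65, and each library left out.

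The named hairpins were the 4 members, those with a shared seed, and for each member the 3 tested hairpins with the highest Pearson's r. The seed part could not be applied without sequences, and mir-63 was named from family background instead. Members, lists and tests were chosen with earlier results of these data known.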

Additional observations from a re-analysis of the deposited data

How the results depend on the processing

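The falls of mir-229, mir-64 and mir-65 between day 20 and day 1 kept their direction under every alternative run, and lane as a factor was the only one that ended a call, leaving 1 member called in rotenone in place of 3. The value of mir-66 over that span turned to -0.023 in rotenone and -0.044 in 2-deoxyglucose with total counts, while TMM computed without mir-35 to mir-42 and the top 5 hairpins called it higher (0.35 in rotenone, adjusted p = 0.00940; 0.26 in 2-deoxyglucose, adjusted p = 0.0416). With total counts the median log2 change of all hairpins against day 1 was -0.28, -0.15 and -0.21 in rotenone at days 5, 10 and 20. In the fit reported it was 0.01, 0.02 and -0.03. In 2-deoxyglucose it was -0.22, -0.29 and -0.18 with total counts, in place of 0.02, -0.06 and -0.09. The split of hairpins called higher and lower then went to 18 and 54 in place of 35 and 29 at day 5 in rotenone, 29 and 52 in place of 41 and 37 at day 10, and 40 and 53 in place of 48 and 42 at day 20. In 2-deoxyglucose it was 18 and 46 in place of 32 and 31 at day 5, and 36 and 62 in place of 44 and 49 at day 10. For the compounds at day 10 it was 3 and 17 in place of 6 and 2 with TMM without the members. The number of members called moved by more than 1.5 times, or from or to 0, in the cases listed next. It also did so with lane for rotenone day 20 against day 1, as given above. The cause of these moves was not tested. Apart from these cases and from single libraries left out, the number of members called stayed within 1.5 times. For 2-deoxyglucose day 20 against day 10, for example, it was 2 to 4 in place of 3 in the settings other than total counts. For rotenone against 2-deoxyglucose at day 10 it was 2 in the fit reported, 1 with DESeq2 size factors, with TMM without the members and with the strict filter of 100 counts (mir-66, lower), and 0 with TMM without the abundant hairpins, without a filter, and with mir-64 and mir-65 summed. For the mean of the ages it was 1 in place of 0 with TMM without the members and with DESeq2. For rotenone day 5 against day 1 it was 2 in place of 1 with total counts (both lower), TMM without the members and lane (1 higher and 1 lower each), and 0 without a filter and with only the groups compared. For rotenone day 10 against day 1 it was 0 in place of 1 with total counts, without a filter and with lane. For rotenone day 10 against day 5 it was 1 in place of 0 with total counts and 2 with lane. For 2-deoxyglucose day 5 against day 1 it was 0 in place of 1 with total counts. For 2-deoxyglucose day 10 against day 5 it was 1 in place of 3 with total counts, TMM without the members, the strict filter and only the groups compared, and for day 20 against day 10 it was 1 in place of 3 with total counts. For the interaction at day 10 it was 1 in place of 0 with TMM without the members and with DESeq2 (mir-66, negative), and 2 with lane (mir-64 and mir-65, positive), with only the groups compared (mir-65, positive, and mir-66, negative) and without the 6 day 5 libraries (mir-64 and mir-65, positive), an alternative chosen after seeing the data. With mir-64 and mir-65 summed, 2 of 3 ratios differed with age in place of 4 of 6.

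With each library left out in turn the number of members called lay between 0 and 2 for the compounds at day 5, 0 and 3 at day 10, and 0 and 1 for the mean of the ages, and was 0 at days 1 and 20. For later against earlier ages it lay between 0 and 3 (day 5 against day 1), 1 and 1 (day 10 against 1), 3 and 3 (day 20 against 1), 0 and 2 (day 10 against 5) and 1 and 3 (day 20 against 10) in rotenone. In 2-deoxyglucose these ranges were 1 and 1, 3 and 4, 3 and 3, 0 and 3, and 1 and 3. The interaction at day 10 gave 0 to 1, and the ratios gave 3 to 5 of 6 for age and 0 for compound. The compound difference in the log2 ratio of mir-229 to mir-64 ranged from -0.109 to 0.0198 and turned positive without rotenone day 5 replicate 1. That of mir-229 to mir-65 ranged from -0.0970 to 0.0342 and turned positive without rotenone day 5 replicate 1 (0.0342), 2-deoxyglucose day 5 replicate 1 (0.0020) or rotenone day 20 replicate 2 (0.0056). No paired analysis was possible because the replicate numbers are in accession order and pair no libraries. Day 20 has 2 libraries a group, and a left-out one leaves a lone library that is assumed to vary like the other groups.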
